A study of Mus musculus with 22 samples.

Results

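Mammary tumours of mice that carry the Her2/Neu transgene and are wild type for PEA3 were compared with normal mammary glands of the FVB strain, on 17 of the 22 arrays of the series. The members were chosen by array title, 8 arrays of wild-type tumours and 9 of normal glands, and no measured value was used in the choice. Each RNA sample was hybridised to Affymetrix MG-U74v2 chips, a mouse set in which A, B and C chips carry different probe sets and a probe set reads 1 transcript. Chips A and B held 3 wild-type tumour and 3 normal gland samples each, and chip C held 2 tumour and 3 gland samples. PEA3, encoded by Etv4, is a transcription factor of the ETS family, and the other tumours of the series, on 5 arrays, are labelled as lacking it. The labels describe the tumour RNA as a pool and title the normal samples as pools, and each group has a single sample identifier. The 3 samples of a group may therefore be repeat preparations, and the p-values given here measure the spread between them, not between animals. The labels give every group total RNA, the same estimated purity and cell sorting for the surface protein Sca-1, whose gene Ly6a has no tested probe set of its own, so the sort was not checked here. All 3 normal glands nevertheless gave strong signal of fat cell and skeletal muscle genes, which a sort for a surface protein would not be expected to keep, and the labels do not settle which material was hybridised. They give no age, no strain for the tumour mice and no promoter for the transgene.

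Neu is the rodent form of ErbB2, a receptor tyrosine kinase that signals through the Ras and MAP kinase cascade and through phosphatidylinositol 3-kinase. In the mammary gland it acts in epithelial cells, and Neu tumours are known as luminal adenocarcinomas. A normal virgin gland consists largely of a fat pad crossed by branching ducts, with vessels, nerves, lymph nodes and, where dissection takes it along, muscle of the body wall. In bulk RNA fewer cells of a type and less RNA per cell cannot be told apart.

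Of 28242 probe sets tested, 5876 passed the threshold of 0.05 on the limma adjusted p (20.8%), 2971 of them higher (10.5%) and 2905 lower (10.3%) in tumours. At an unadjusted p under 0.05 the count was 9019. Signals of the 2 groups did not overlap at 11833 probe sets (41.9%). Read gene by gene, with the brightest tested probe set of each of 13908 genes, 26.7% passed, 12.9% higher and 13.8% lower, and the median log2 difference was -0.0006. These are the shares and the median to set beside every gene list that follows. Correlations over all chip A probe sets were 0.911 to 0.923 between tumours, 0.966 to 0.968 between glands and 0.788 to 0.806 between a tumour and a gland. The ratio of 3' to 5' signal of the GAPDH control, which rises as RNA degrades, was 1.01 to 1.25 on tumour arrays and 2.58 to 6.08 on gland arrays. For actin it was 1.15 to 1.66 and 1.28 to 2.14. No tumour array was scanned on a day when a gland array of its chip was, and the effects of day and tissue cannot be told apart. These differences accompany all results below, and their part in them was not tested. The chip A arrays of normal glands 1 and 2 have wash records that end in an abort, and without both glands, in a fit where the lone gland is assumed to vary like the other groups, 2093 of 26588 probe sets passed. Counts from that fit are given with the larger lists. The gland left in it, normal gland 3, had GAPDH ratios of 5.25, 5.68 and 6.08 on chips A, B and C. Those of glands 1 and 2 were 2.58 to 3.03. The abort was recorded on chip A only, while the fit leaves out both glands on other chips as well.

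Among genes with a mean signal of at least 150 in both groups and no overlap between them, the 15 largest rises ran from log2 7.35 for Aqp5 to 4.41 for Vgll4. Aqp5, a water channel of secretory epithelia (probe set 113916_at), read 43975, 50799 and 42356 in tumours, against 195, 194 and 395 in normal glands (log2 7.35, SE 0.24, limma adjusted p = 4.08e-09). Kcnn4, a calcium-activated potassium channel, read 15166, 20246 and 13962 in tumours, against 498, 650 and 625 in glands (log2 4.72, SE 0.17). Each of the 3 tumour samples lay far above each gland for both channels, and the gaps were wide against the spread of either group. Ncald, a neuronal calcium sensor, rose to 7027, 8577 and 7095 in tumours, against 173, 175 and 185 in glands (log2 5.17, SE 0.25). Pbk, a mitotic protein kinase, read 7160, 7171 and 5123 in tumours, against 138, 391 and 113 in glands (log2 4.88, SE 0.41). Gland 2 read higher for Pbk than the other two, still below every tumour.

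Arg1, the arginine-cleaving enzyme of liver and of alternatively activated macrophages, read 8658, 5513 and 7017 in tumours, against 230, 185 and 216 in glands (log2 4.85, SE 0.18). Acsl4, which activates arachidonic acid, rose by log2 4.46 (SE 0.18), and Enho, which encodes the secreted peptide adropin, by 4.95 (SE 0.30). Il20rb, a subunit of cytokine receptors of the IL-20 group, rose by 5.67 (SE 0.26) on chip C, with 21616 and 31701 in the 2 tumours. Other signalling genes among the 15 were Ier3, an early response gene (4.68, SE 0.17), the adaptor gene Stap2 (4.52, SE 0.21), Rassf3, of a family of Ras-association proteins (4.42, SE 0.29), and Vgll4, a cofactor of TEAD factors (4.41, SE 0.25). Aldoc, Wfdc18 and Col9a1 complete the set and are described with their groups. All 15 passed with limma adjusted p of at most 6.12e-06. The probe sets of Il20rb and Rassf3 carry the suffix f, which Affymetrix gives to sets that may read members of a sequence family.

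Of the 15 largest falls, that of Acta1 came first. Acta1, skeletal muscle actin (100381_at), read 106, 92.9 and 306 in tumours, against 52137, 50708 and 50567 in glands (log2 -8.15, SE 0.56, limma adjusted p = 1.35e-06). Adipoq, the fat hormone adiponectin (99104_at), read 250, 409 and 272 in tumours, against 26089, 25712 and 27248 in glands (log2 -6.30, SE 0.23, limma adjusted p = 1.46e-08). The glands differed little among themselves for these genes, and no tumour came near them. Besides Acta1 the muscle genes were Myl1, Atp2a1, Actn3, Ckm, Eno3, Casq1, Rpl3l, a muscle paralogue of a ribosomal protein, and Tmem182. Lpl, which frees fatty acids from lipoproteins, and Gpd1, the glycerol phosphate dehydrogenase of fat cells, had log2 differences of -6.11 and -5.24. Gsn, the actin-severing protein gelsolin, read 636, 739 and 635 in tumours, against 30756, 31104 and 30528 in glands (log2 -5.46, SE 0.16). Hspb6, a small heat shock protein of muscle, and Cyp2e1, an alcohol-oxidising cytochrome P450, had log2 differences of -5.08 and -5.04. Folds of this size against tumour signals near 150 depend on the constant of 32 added before log2, so their order is not measured.

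**Figure D1:**
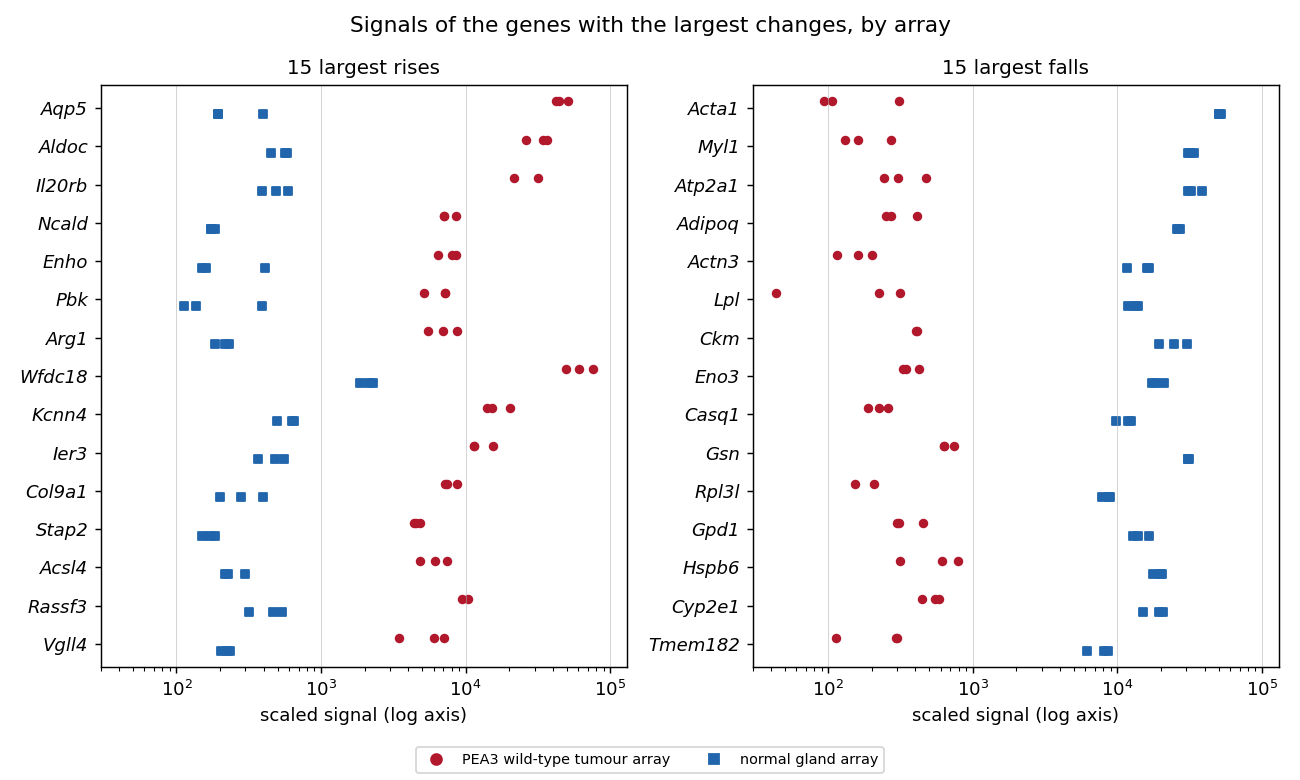
Scaled signal (log axis) on each array for the 15 genes with the largest rises and the 15 with the largest falls. Genes were chosen among those with a mean of 150 or more in both groups and no overlap between groups. Circles are PEA3 wild-type tumour arrays and squares normal gland arrays. Within every gene the 2 groups stand apart by this choice, with Aqp5 at 42356 to 50799 in tumours against 194 to 395 in glands.

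Of 4 ErbB receptor genes Erbb2 and Erbb3 rose and the other two did not pass. Of 9 receptor and ligand genes tested, 2 rose and 1 fell, with a median of 0.66. Whether the probe set of Erbb2 reads transcripts of the Neu transgene is not known here, so its values are not a measure of the transgene. Erbb2 itself read 3557 and 4150 in tumours, against 1810, 1953 and 1888 in glands, on chip C (log2 1.02, SE 0.22, limma adjusted p = 0.00962). It missed the threshold without the variance trend (limma adjusted p = 0.1) and without normal glands 1 and 2 (limma adjusted p = 0.179). Erbb3, the kinase-poor partner of ErbB2, read 1448, 1194 and 1143 in tumours, against 546, 631 and 840 in glands (log2 0.89, SE 0.19, limma adjusted p = 0.00511). The groups did not overlap for either receptor, though the changes were small beside those above. Nrg4, a ligand of ErbB4 made by fat, read 476 and 692 in tumours, against 5804, 6864 and 6358 in glands (log2 -3.39, SE 0.26). Its other probe sets had log2 differences of 0.40 and -0.76, of which the first did not pass. Egfr (0.57), Erbb4 (0.72), Tgfa (1.11), Egf (0.66), Hbegf (0.29) and Nrg3 (-0.54) did not pass.

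Genes that the MAP kinase cascade switches on to restrain itself rose in part. Of 17 such genes tested, 5 rose (29.4%), 1 fell and 11 did not pass, with a median log2 difference of 0.12. Dusp6, the phosphatase that inactivates ERK, read 8901, 8779 and 9371 in tumours, against 621, 604 and 581 in glands (log2 3.84, SE 0.13, limma adjusted p = 8.34e-09). Spry2, an inhibitor of receptor tyrosine kinase signalling, read 10375, 14136 and 13015 in tumours, against 2132, 2229 and 1484 in glands (log2 2.67, SE 0.23). In both genes the lowest tumour stood several times above the highest gland. Dusp5 (1.47), Dusp8 (1.34) and Errfi1 (1.03), which encodes an inhibitor of ErbB kinases, rose less. Dusp1, a phosphatase induced by stress and mitogens, fell by 1.03, and Spry1 (-0.20), Spry4 (-0.28), Dusp4 (0.42) and Spred1 (0.45) did not pass.

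ETS factors, the family of PEA3, rose more often than they fell. Of 20 tested, 6 rose and 1 fell, with a median of 0.06. Etv5, of the same subfamily as PEA3, read 4868, 4861 and 4037 in tumours, against 417, 315 and 362 in glands (log2 3.55, SE 0.22, limma adjusted p = 1.53e-07). Etv4 was read by 2 probe sets, and the brighter one, which did not pass, stands for it in the count. The dimmer (92979_at) read 420, 360 and 361 in tumours, against 116, 179 and 153 in glands (log2 1.20, SE 0.30, limma adjusted p = 0.0142), and missed the threshold without normal gland 1 (limma adjusted p = 0.0621). The brighter (161842_r_at) read 930, 367 and 954 in tumours, against 943, 617 and 839 in glands, and did not pass (log2 -0.18, limma adjusted p = 0.771). The epithelial ETS factor genes Spdef (3.27), Ehf (2.01) and Elf5 (1.35), a regulator of alveolar development, rose. Fli1, the ETS factor of endothelium and blood cells, read 205, 100 and 48.9 in tumours, against 1111, 834 and 816 in glands (log2 -2.79), and its other probe set did not pass (0.56). Among 18 immediate early genes 3 rose and 2 fell, shares close to those of all genes. Ier2 (2.11) and Junb (2.05), a subunit of the AP-1 factor, rose beside Ier3, Klf4 fell by 2.61, and Fos (0.15), Jun (0.12), Egr1 (-0.92) and Myc (0.56) did not pass.

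Mitosis genes were higher in tumours as a group. Of 43 tested, 21 rose (48.8%), 0 fell and 22 did not pass, with a median log2 difference of 1.07. Spag5, a protein of the mitotic spindle, read 4510, 3512 and 3458 in tumours, against 26.4, 16.7 and 20.6 in glands (log2 6.17, SE 0.30, limma adjusted p = 2.39e-08). Cdk1, the kinase that drives entry into mitosis, read 2382, 2045 and 2336 in tumours, against 323, 66.8 and 286 in glands (log2 3.35, SE 0.40). Cks2, its small binding partner, read 1677, 1582 and 1560 in tumours, against 115, 125 and 31.6 in glands (log2 3.85, SE 0.33). Every tumour exceeded every gland for these genes, and the tumours varied little among themselves. Kif20a, a motor of cytokinesis, rose by 3.10 (SE 0.33). Markers often used for dividing cells did not all follow, since Mki67 (0.07), Foxm1 (-0.53), Top2a (1.24), Aurka (0.91) and Bub1b (-0.09) did not pass. Summed over the 35 members on chips A and B, the signal was 30483 to 33937 in tumours and 7746 to 9449 in glands. With normal glands 1 and 2 left out, 12 of the mitosis genes rose.

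Promoters of mitosis genes are known to carry a short element called CHR (TTTGAA) close to the start of transcription, with CCAAT boxes upstream. The promoter windows of the 3 genes of the list just given by array are printed because these genes moved together. They run from 250 bases before to 50 after the RefSeq start, in assembly GRCm38.p6, 5' to 3' along the gene. Capitals mark CHR and CCAAT letters found on either strand. Spag5 lies on the plus strand at chr11:78301341-78301640, Cks2 on the plus strand at chr13:51644982-51645281 and Cdk1 on the minus strand at chr10:69352863-69353162.
Spag5: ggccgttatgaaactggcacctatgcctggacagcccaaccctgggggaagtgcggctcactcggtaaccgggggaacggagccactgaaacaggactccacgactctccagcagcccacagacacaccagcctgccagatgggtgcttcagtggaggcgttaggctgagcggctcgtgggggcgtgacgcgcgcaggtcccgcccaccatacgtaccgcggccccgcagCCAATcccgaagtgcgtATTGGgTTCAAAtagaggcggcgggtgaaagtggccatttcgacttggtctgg
Cks2: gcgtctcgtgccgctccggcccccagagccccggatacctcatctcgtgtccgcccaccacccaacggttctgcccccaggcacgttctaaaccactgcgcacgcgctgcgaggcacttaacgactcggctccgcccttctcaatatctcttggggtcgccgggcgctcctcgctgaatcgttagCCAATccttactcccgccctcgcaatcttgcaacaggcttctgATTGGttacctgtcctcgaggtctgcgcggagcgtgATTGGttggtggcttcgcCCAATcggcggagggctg
Cdk1: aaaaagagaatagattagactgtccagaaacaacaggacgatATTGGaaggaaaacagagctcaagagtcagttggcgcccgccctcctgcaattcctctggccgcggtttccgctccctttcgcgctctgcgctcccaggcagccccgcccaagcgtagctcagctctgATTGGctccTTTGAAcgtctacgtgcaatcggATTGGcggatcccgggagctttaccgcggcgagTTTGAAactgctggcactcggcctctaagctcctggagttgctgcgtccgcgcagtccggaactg

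The Spag5 window held 1 CHR and 2 CCAAT matches, that of Cdk1 2 and 3, and that of Cks2 0 and 4. Among mitosis genes that rose, 15 had a window, and 11 of these genes held TTTGAA (73.3%) and 13 held CCAAT (86.7%). Of all 32851 windows, 17.9% held TTTGAA and 37.4% held CCAAT. Mitosis genes that did not pass had the same motifs, TTTGAA in 14 and CCAAT in 14 of 19 genes with a window (73.7%). The share with TTTGAA was thus nearly the same in genes that rose and in genes that did not pass. A match of letters is a description and not a binding site.

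Genes of DNA replication and nucleotide synthesis rose less widely, 11 of 30, with 1 lower and a median of 0.63. Uhrf1, which keeps methylation at replicated DNA, read 929, 726 and 1002 in tumours, against 152, 174 and 315 in glands (log2 1.95, SE 0.27). Mcm7, a subunit of the replicative helicase, and Rfc5, a subunit of the clamp loader, rose by 1.60 and 1.52, and Pcna, the sliding clamp, by 1.05. The other helicase subunits Mcm2 (-0.04), Mcm4 (-0.38), Mcm5 (-0.37) and Mcm6 (-0.97) did not pass. Leaving out 1 sample at a time gave 6 to 8 rises in this list and leaving out both glands gave 5. Among 19 G1 regulators 5 rose and 2 fell. Ccnd1, cyclin D1, read 2460, 2750 and 1966 in tumours, against 770, 839 and 803 in glands (log2 1.52, SE 0.16, limma adjusted p = 2.92e-05). Its partner Cdk4 rose by 0.94, and the inhibitor genes Cdkn1b, for p27, and Cdkn1a, for p21, rose by 1.40 and 0.93. The second probe set of Cdkn1a did not pass (-0.23), and the first missed the threshold without normal gland 2.

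Genes of cell death and of the p53 response were divided. Of 15 Bcl2 family genes 5 rose and 1 fell. The killer genes Bik (2.92, SE 0.32) and Bad (2.65, SE 0.28) rose together with the survival gene Bcl2l1 (0.94), which encodes Bcl-xL. Bik read 660, 485 and 498 in tumours, against 42.6, 44.4 and 44.6 in glands. Bcl2 (-0.07), Bak1 (0.15) and Bid (0.55) did not pass, and the second probe set of Bad read -0.48 without passing. Of 16 p53 target genes 3 rose and 4 fell. Perp, also a desmosome gene, rose by 2.40 (SE 0.22), while Phlda3 (-2.28, SE 0.19) and Sesn1 (-1.90, SE 0.20) fell and Mdm2 (-0.87) did not pass.

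The protein-making apparatus was higher in tumours at several steps. Of 33 cytosolic ribosomal protein genes tested, of 76 sought, 21 rose (63.6%), 0 fell and 12 did not pass, with a median of 0.96. Rps7 read 30704, 31268 and 32105 in tumours, against 10888, 7331 and 8034 in glands (log2 1.86, SE 0.19, limma adjusted p = 2.95e-05). Rps3 read 47637, 34756 and 41277 in tumours, against 15995, 11901 and 14350 in glands (log2 1.55, SE 0.17). The groups were well apart, although gland 1 was the highest gland for both. Rpl13a rose by 3.85 (SE 0.28). The many processed pseudogenes of ribosomal proteins make the source of such signals uncertain. Of 25 genes of ribosome assembly and polyamine synthesis 5 rose and 0 fell, with a median of 0.13, and Npm1 (-0.41), Ncl (-0.44) and Odc1 (0.07) did not pass. With a minimum log2 change of 1 in the test, 3 ribosomal protein genes rose. When normal glands 1 and 2 were omitted, 14 rose.

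Genes of protein entry into the secretory route also rose. Sec61b, a subunit of the translocation channel, read 4010, 4990 and 4486 in tumours, against 824, 662 and 603 in glands (log2 2.64, SE 0.16, limma adjusted p = 4.52e-07). Ssr2, a part of the translocon-associated complex, rose by 2.62 (SE 0.20). In the list of 44 early secretory genes 14 rose and 5 fell, and those that fell belong to vesicle coats, with Sec31a (-1.43) and Sec23a (-1.42) of COPII, Copa (-0.77) of COPI and the coat GTPase gene Sar1b (-1.07). Copg1 of COPI fell at 1 probe set (-0.91) and rose at another (2.88). Of 26 chaperone and stress genes of the endoplasmic reticulum 9 rose and 1 fell. Trib3, a pseudokinase of the stress response, rose by 3.17, the transcription factor gene Xbp1 by 2.77, Manf by 2.06 and the chaperone regulator gene Dnajc3 by 1.78. Another probe set of Dnajc3 rose (2.40), and the remaining ones (-0.47, -0.22, -0.46 and 0.19) did not pass. Xbp1 read 10894, 13422 and 13976 in tumours, against 2263, 1851 and 1459 in glands. Ddit3 (-0.48), Atf4 (-0.04) and Hsp90b1 (-0.04) did not pass, and Chac1, a target of Atf4, fell by 1.44. Among 30 proteasome subunit genes 12 rose and 3 fell, with a median of 0.40. Psmd13 (1.83), Psma7 (1.67), Psmb6 (1.59) and Psma4 (1.45) rose, while the regulatory subunit genes Psmd1 (-1.88), Psmd11 (-1.13) and Psmd6 (-0.83) fell. Proteasome rises numbered 7 without normal gland 2 and 6 without both glands, and rises of secretory genes numbered 8 without both.

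**Figure D2:**
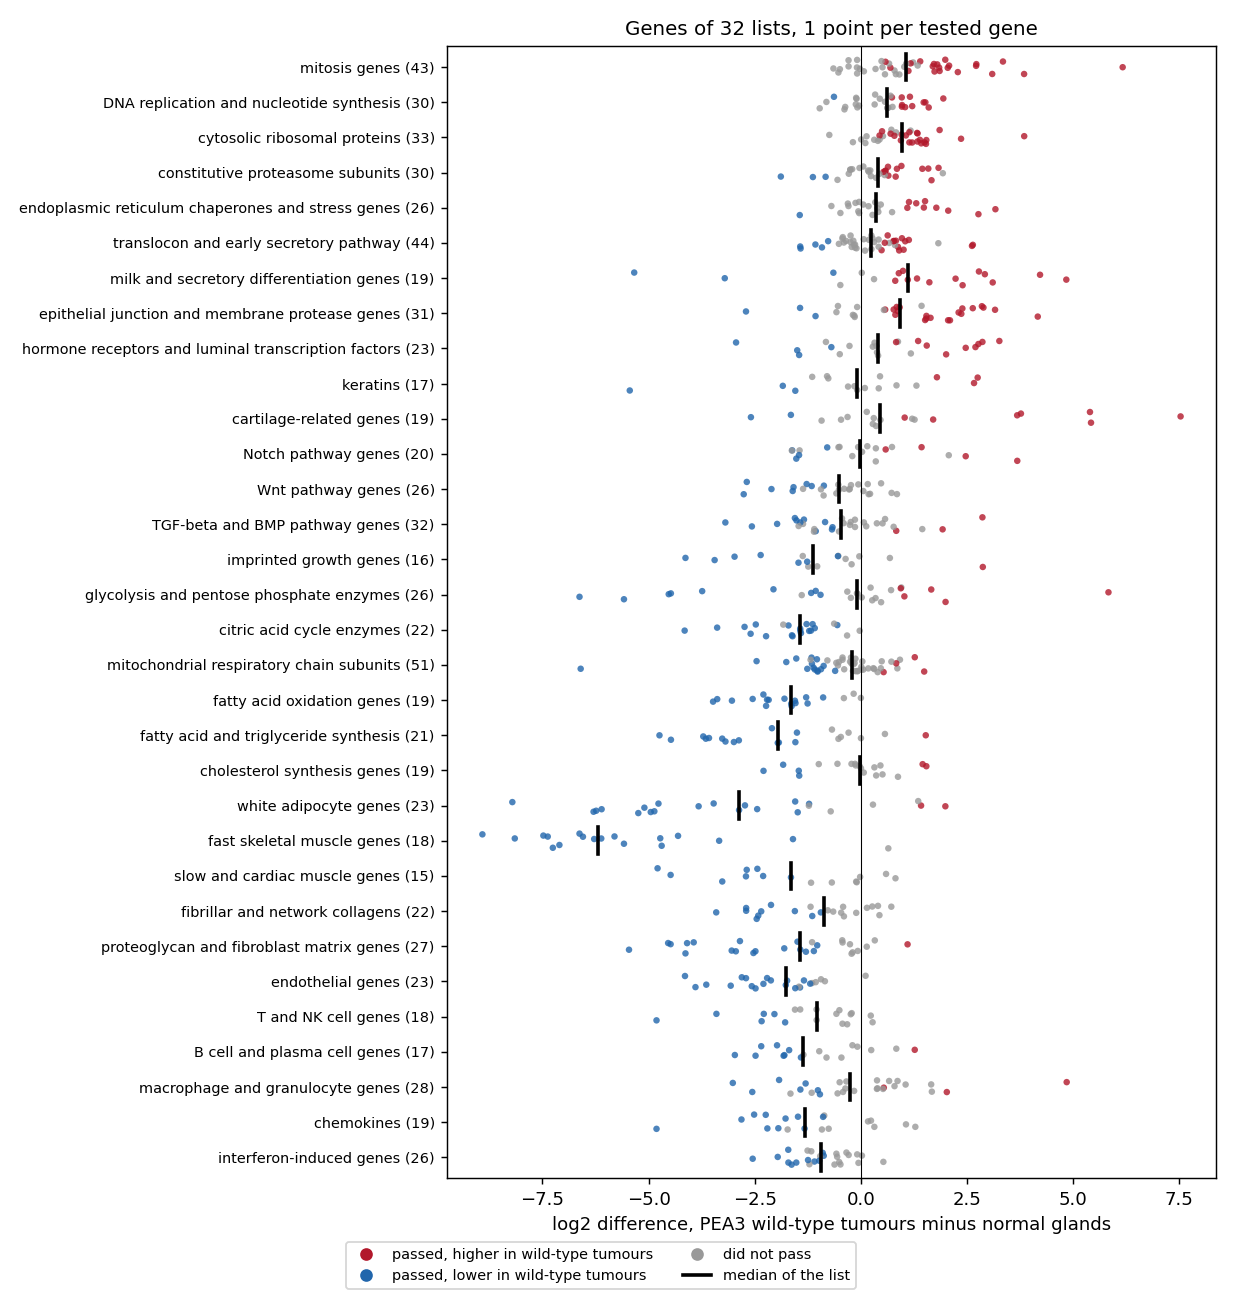
Log2 difference, PEA3 wild-type tumours minus normal glands, of each tested gene of 32 lists, with the number of genes in brackets and the median as a black bar. Red points passed the test and were higher in tumours, blue points passed and were lower, grey points did not pass; medians run from 1.11 for milk genes to -6.20 for fast skeletal muscle genes.

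Epithelial junction genes were mostly higher in tumours, and keratins were divided. Of 31 genes of epithelial junctions and membrane proteases 20 rose (64.5%) and 3 fell, with a median of 0.92. Cldn3, a tight junction claudin, read 9409, 10366 and 10102 in tumours, against 525, 489 and 554 in glands (log2 4.17, SE 0.12, limma adjusted p = 4.08e-09). Cldn8 (2.89), the protease inhibitor gene Spint1 (3.17) and Lsr of tricellular junctions (2.85) also rose, Cdh1, E-cadherin, by 0.58 and Epcam by 0.87. Other probe sets of Epcam rose by 3.04 and 2.77, and a further one did not pass (0.35). The members that fell were Cldn5 (-2.70), the claudin of endothelium, Pkp1 (-1.43), a plakophilin of stratified epithelia, and Tjp1 (-1.06), the scaffold ZO-1. Summed over 25 members on chips A and B the signal was 30098 to 33320 in tumours and 8308 to 9164 in glands. Without normal glands 1 and 2, 12 junction genes rose. Of 17 keratins 3 rose and 3 fell, with a median of -0.08. The simple-epithelium keratins Krt8 (2.67, SE 0.20) and Krt18 (1.80, SE 0.17) rose with Krt23 (2.76). Krt8 read 9453, 14878 and 14256 in tumours, against 1775, 1716 and 2449 in glands. Krt19, a ductal luminal keratin, went the other way, with 10.5, 22.4 and 18.3 in tumours against 2134, 1958 and 2186 in glands (log2 -5.44, SE 0.34). Krt6a (-1.54) and Krt6b (-1.84) fell, while other probe sets of Krt6a (-0.51 and 0.74) did not pass.

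Regulators of the luminal lineage changed in both directions. Of 23 hormone receptor and luminal factor genes 9 rose and 4 fell. Besides Spdef, Id2 (2.87), Xbp1 and Tfap2c (2.70), an AP-2 factor of mammary epithelium, had the largest rises. Tfap2c read 4028, 5412 and 3743 in tumours, against 770, 649 and 521 in glands. Esr1, the oestrogen receptor, read 413, 417 and 460 in tumours, against 983, 1622 and 1165 in glands (log2 -1.45, SE 0.31, limma adjusted p = 0.00459). Its pioneer factor gene Foxa1 read 25.1, 32.7 and 24.6 in tumours, against 422, 409 and 436 in glands (log2 -2.94, SE 0.40). Both genes of hormone sensing were lower in each tumour than in any gland, and so was the glucocorticoid receptor gene Nr3c1 (-1.50). Stat5b also fell (-0.69), though its second probe set did not pass (-0.37). Gata3 (1.18) and Stat5a (-0.26) did not pass.

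Milk and secretory genes were mostly higher in tumours. Of 19 tested, 13 rose (68.4%), 3 fell and 3 did not pass, with a median of 1.11. Wfdc18, a secreted whey-type protein, read 76249, 60470 and 49332 in tumours, against 2299, 2143 and 1864 in glands (log2 4.84, SE 0.22). Lalba, the milk protein alpha-lactalbumin, read 45841, 23955 and 23467 in tumours, against 1361, 1437 and 1899 in glands (log2 4.23, SE 0.29). Tumour 1 was the highest for both. Lcn2 rose by 3.11 and Wap by 2.92, and the casein genes Csn3, Csn1s2a, Csn1s1 and Csn2 rose by 2.23, 2.40, 1.33 and 0.90. Glycam1, a mucin of milk and of lymph node venules, read 53.1, 246 and 134 in tumours, against 8438, 5682 and 5353 in glands (log2 -5.34, SE 0.47). Ltf, lactoferrin, fell by 3.20 and the milk lipase gene Cel by 0.64, while Btn1a1 of milk fat globules (0.02) did not pass.

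**Figure D3:**
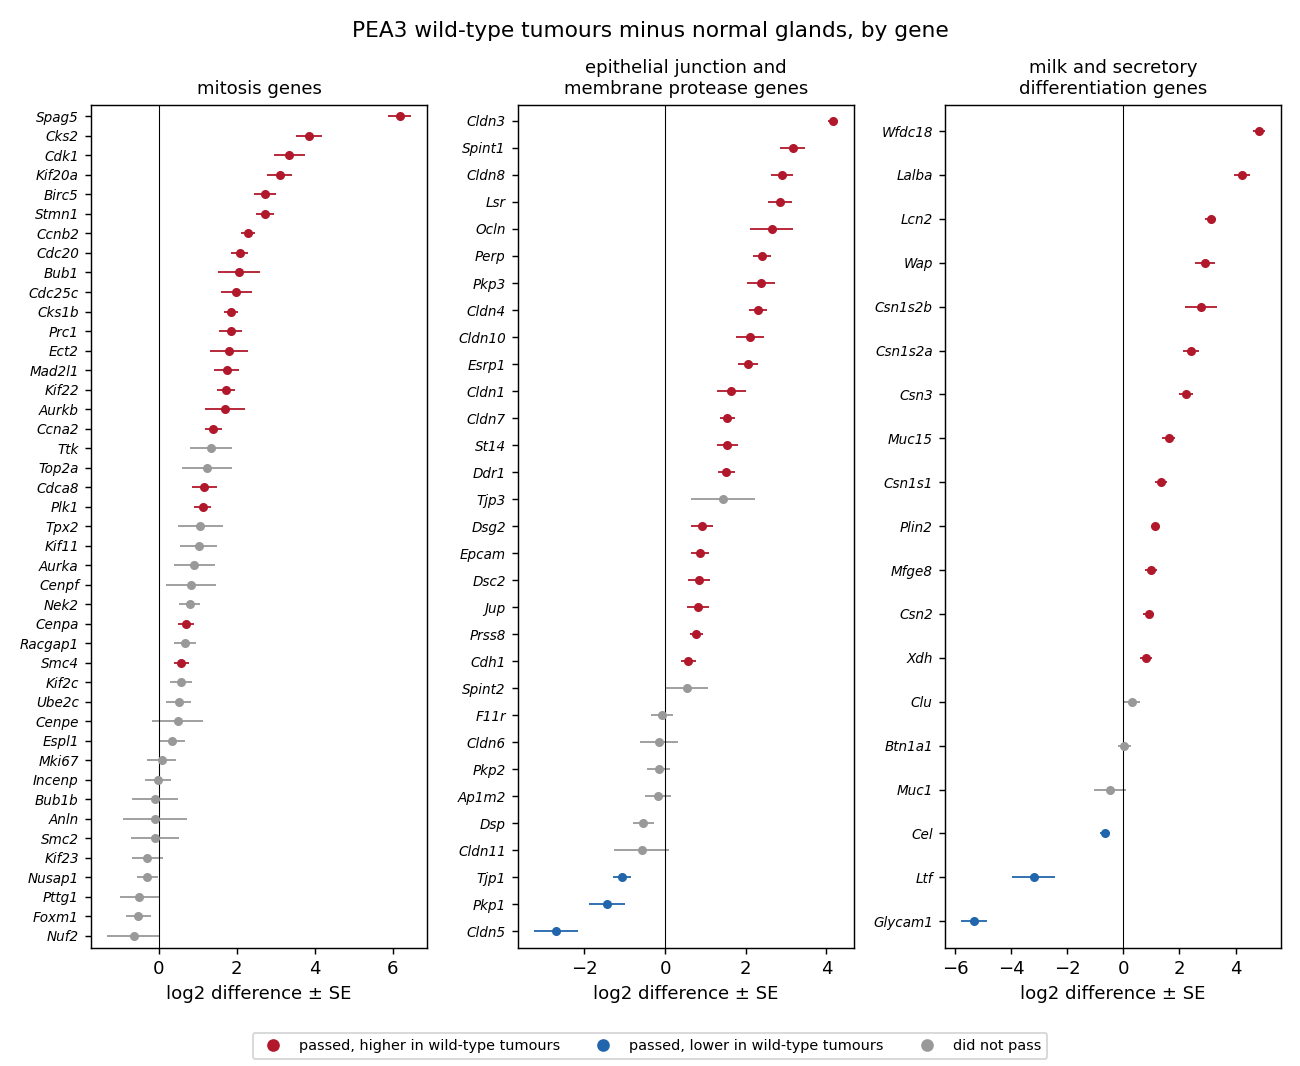
Log2 difference with its standard error, PEA3 wild-type tumours minus normal glands, for every tested mitosis gene, junction and protease gene, and milk gene, sorted by size. Red genes passed and were higher in tumours, blue genes passed and were lower and grey genes did not pass; the longest blue fall is that of Glycam1 at -5.34.

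Some of the widest changes lay in cartilage-related genes and in carbonic anhydrases, which are separate lists. Of 19 cartilage-related genes 7 rose and 2 fell. Col9a1, a collagen of cartilage, was read at 30326, 33133 and 27377 in tumours, against 116, 89.7 and 208 in glands, by its brightest probe set (log2 7.54, SE 0.28). Mia (5.43) and Scrg1 (5.40) rose, and so did Comp (3.77, 2 tumours) and Col11a1 (3.69). Acan (0.31), Col9a2 (0.36) and Sox9 (0.28), the master factor of cartilage, did not pass, and its partner Sox6 fell by 2.59. Of 21 aquaporin and carbonic anhydrase genes 4 rose and 5 fell, with a median of 0.21. Car6, a secreted carbonic anhydrase, rose by 6.35, Car12 by 3.34 and the cytosolic Car2 by 3.22. Car2 read 4519, 4048 and 4391 in tumours, against 476, 403 and 431 in glands. Car3, the form of fat and muscle, read 54.8, 40.5 and 49.8 in tumours, against 20247, 26379 and 24856 in glands (log2 -8.21). The vascular water channel gene Aqp1 fell by 3.89, its second probe set reading 1.07 without passing. Of 15 S100 and syndecan genes 4 rose and 1 fell, with S100a1 at 2.34, Sdc4 at 1.15 and S100a6 at -0.95.

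Many smooth muscle and mesenchymal genes were lower. Of 15 myoepithelial and smooth muscle genes 8 fell and 2 rose. Cav1, the coat protein of caveolae, fell by 4.59 (SE 0.21), followed by Tpm2 (-3.87), Acta2, smooth muscle actin (-2.77), and Sparcl1 (-2.19). The second probe set of Cav1 read 0.10 and that of Acta2 0.95, neither passing. Trp63 (-1.70), Krt17 (-0.30), Actg2 (-0.21) and Myh11 (-0.46) did not pass, and the basal keratin genes Krt5 and Krt14 were below the signal filter. Cald1, caldesmon, rose by 1.18 at its brightest probe set and by 3.70 and 4.32 at others. Tpm1 rose by 1.43 at its brightest probe set and fell at 2 others (-1.52 and -6.14). Of 18 genes of mesenchymal cells and of epithelial-mesenchymal transition 9 fell and 0 rose, with a median of -1.24. Prrx1, a homeobox factor gene of mesenchyme, read 22, 54.4 and 144 in tumours, against 1097, 930 and 908 in glands (log2 -3.43, SE 0.53). Pdgfra, a receptor of fibroblast precursors, and Twist1, a factor of mesenchyme, also fell (-3.04 and -2.86). The other probe set of Pdgfra did not pass (0.53). Vim (0.04), Zeb2 (-0.02), Snai1 (-0.32) and Snai2 (-0.62) did not pass. With normal glands 1 and 2 left out, 5 mesenchymal genes fell.

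Wnt and TGF-beta genes that passed were mostly lower, and Notch genes were divided. Of 26 Wnt pathway genes 8 fell and 0 rose, with a median of -0.52. Fzd4, a Wnt receptor, read 859, 767 and 553 in tumours, against 4086, 5514 and 4815 in glands (log2 -2.69, SE 0.41), and the secreted inhibitor gene Dkk3 fell by 2.76. The other probe set of Dkk3 did not pass (0.23). Of 32 genes of TGF-beta and BMP signalling 11 fell and 3 rose, 5 to 8 falling when 1 sample was left out. Tgfbr3, the co-receptor betaglycan, read 1060, 1272 and 1328 in tumours, against 10971, 11780 and 11281 in glands (log2 -3.19, SE 0.20, limma adjusted p = 1.59e-07). Ltbp4, which binds latent TGF-beta, fell by 2.56, while Id2, Inhbb, an activin subunit (1.93), and Tgfb3 (0.84) rose. Notch4 read 3522, 3322 and 5003 in tumours, against 241, 394 and 209 in glands (log2 3.69, SE 0.22), by a probe set that may read a sequence family, and its other set did not pass (-0.53). The Notch target gene Hey1 rose by 2.47 and the pathway's DNA-binding factor gene Rbpj fell by 1.52, among 20 genes with 4 rises, 4 falls and a median of -0.01. Other probe sets of Hey1 (0.06) and Rbpj (-0.52) did not pass. Notch1 rose at 1 probe set (1.43) and fell at the other (-2.15). When normal glands 1 and 2 were omitted, falls numbered 2 for Wnt genes and 5 for TGF-beta and BMP genes, and any single gland left out gave 5 for Wnt genes.

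In the insulin-like growth factor system 4 of 14 genes fell and 1 rose. Igfbp6, a binding protein with a preference for IGF-II, read 90.9, 85.1 and 66.5 in tumours, against 3751, 3229 and 3897 in glands (log2 -5.02, SE 0.23). Igfals, which holds IGF in the circulating complex, read 3016, 2770 and 2607 in tumours, against 354, 582 and 587 in glands (log2 2.42, SE 0.19). The pair went in opposite directions, and the groups overlapped in neither. Ghr, the growth hormone receptor, fell by 3.41 and Igfbp4 by 2.27, while Igf1 (-0.48), Igf1r (-0.92) and Irs1 (0.49) did not pass. Of 16 imprinted growth genes 7 fell and 1 rose, with a median of -1.13. Dcn (-4.13), Sgce (-3.44), Nnat (-2.97) and Ndn (-2.36), all expressed from 1 parental allele in some tissues, fell, and Phlda2, a growth-restraining gene of the placenta, rose by 2.88. Phlda2 read 792, 888 and 786 in tumours, against 76.4, 66.8 and 114 in glands. Without normal glands 1 and 2, 3 imprinted genes fell.

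Glycolytic enzymes changed by isoform. Of 26 genes of glycolysis and the pentose phosphate route 5 rose and 9 fell, with a median of -0.08. Aldoc, the brain-type aldolase (160546_at), read 36415, 26192 and 34363 in tumours, against 579, 562 and 452 in glands (log2 5.84, SE 0.16, limma adjusted p = 4.08e-09). Hk1, the widespread hexokinase, read 20387, 18799 and 20844 in tumours, against 6365, 4156 and 4660 in glands (log2 2.00, SE 0.16). Hk2, the hexokinase of insulin-sensitive tissues, read 35.6, 60.4 and 178 in tumours, against 2209, 2827 and 2209 in glands (log2 -4.47, SE 0.42). The hexokinases thus moved in opposite directions, with no overlap between groups in either. Slc2a1, the widespread glucose transporter, rose by 1.66 and Slc2a4, the insulin-responsive one, fell by 4.52. The liver-type phosphofructokinase gene Pfkl rose by 1.03 and the muscle-type Pfkm fell by 3.74. Muscle-type Pgam2 (-6.63) and Eno3 (-5.58) fell. Pgk1 (0.27) and Tpi1 (-0.09) did not pass, nor did Pkm (0.35), Ldha (-0.08) or Pgam1 (0.02).

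**Figure D4:**
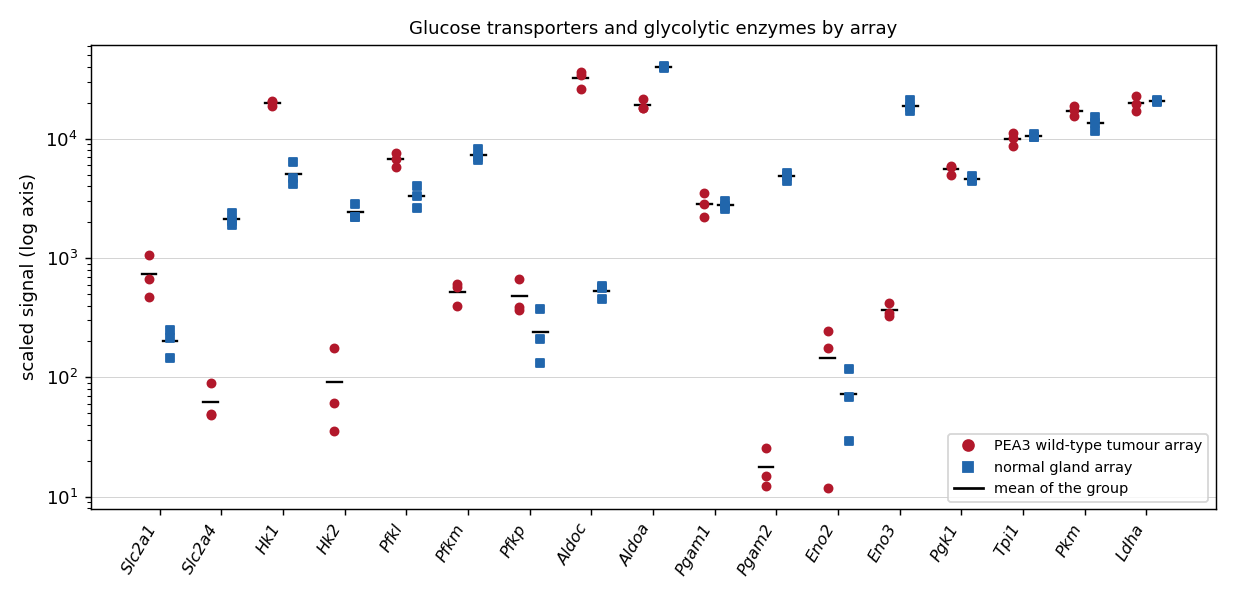
Scaled signal (log axis) of glucose transporters and glycolytic enzymes on each array, with PEA3 wild-type tumour arrays as circles, normal gland arrays as squares and group means as bars. Aldoc, Hk1, Pfkl and Slc2a1 lie higher in tumours, Slc2a4, Hk2, Pfkm, Aldoa, Pgam2 and Eno3 lie lower, and the 2 groups overlap for Ldha and Tpi1; levels of different genes are not comparable.

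Genes of oxidative metabolism were lower in tumours. Of 22 citric acid cycle genes 18 fell (81.8%), 0 rose and 4 did not pass, with a median of -1.43, and none of the 22 had a log2 difference above 0. Cs, citrate synthase, read 1164, 1025 and 868 in tumours, against 5859, 7063 and 5966 in glands (log2 -2.59, SE 0.15, limma adjusted p = 3.22e-07). Ogdh, of the oxoglutarate dehydrogenase complex, read 1036, 705 and 811 in tumours, against 4865, 6612 and 6026 in glands (log2 -2.74, SE 0.18), and its second probe set did not pass (0.11). Gland 2 was the highest gland for both, and each gland exceeded each tumour. Pcx, pyruvate carboxylase, fell by 4.15 and Sdha, the catalytic subunit of succinate dehydrogenase, also fell (-3.38), while cytosolic Mdh1 (-0.32) and Suclg2 (-0.02) did not pass. Of 51 respiratory chain subunits 15 fell, 4 rose and 32 did not pass, with a median of -0.22. Cox6a2, a muscle isoform, fell by 6.60, Cox8b by 2.45, Ndufs1 by 1.75 and Ndufa5 by 1.52, while Atp5e (1.50), Ndufb2 (1.27) and Ndufb8 (0.84) rose. With normal glands 1 and 2 left out, 13 citric acid cycle genes and 7 respiratory chain genes fell. The fall of the citric acid cycle list went with that of fat and muscle markers, whose summed signals are given below, and the part of these tissues in it was not tested.

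Genes of fatty acid breakdown and of fatty acid synthesis both fell. Of 19 fatty acid oxidation genes 16 fell (84.2%) and 0 rose, with a median of -1.64. Acadl, the long-chain acyl-CoA dehydrogenase, read 234, 182 and 197 in tumours, against 1717, 1710 and 2328 in glands (log2 -3.03, SE 0.21). Pdk4, which blocks pyruvate entry into the cycle, fell by 3.48, and the carnitine transferase gene Cpt1a fell by 3.38. When normal glands 1 and 2 were omitted, 10 of these genes fell. Of 21 genes of fatty acid and triglyceride synthesis 14 fell (66.7%) and 1 rose, with a median of -1.95. Fasn, fatty acid synthase, read 919, 730 and 734 in tumours, against 19053, 25049 and 22203 in glands (log2 -4.74, SE 0.19). Srebf1, a transcription factor that drives this pathway, read 17604, 24457 and 19282 in tumours, against 6600, 7780 and 6623 in glands (log2 1.53, SE 0.16, limma adjusted p = 2.74e-05). The regulator was thus higher in each tumour than in any gland while Fasn, Acaca (-4.47) and Acss2 (-3.71) were lower, and Mlxipl, the other lipogenic factor of the list, fell by 3.65. Cholesterol synthesis genes showed no common shift, with 2 of 19 higher, 4 lower and a median of -0.03. Hmgcs1 fell by 1.83, Ebp rose by 1.55, and Sqle (-0.12), Lss (0.07) and Dhcr7 (-0.13) did not pass.

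**Figure D5:**
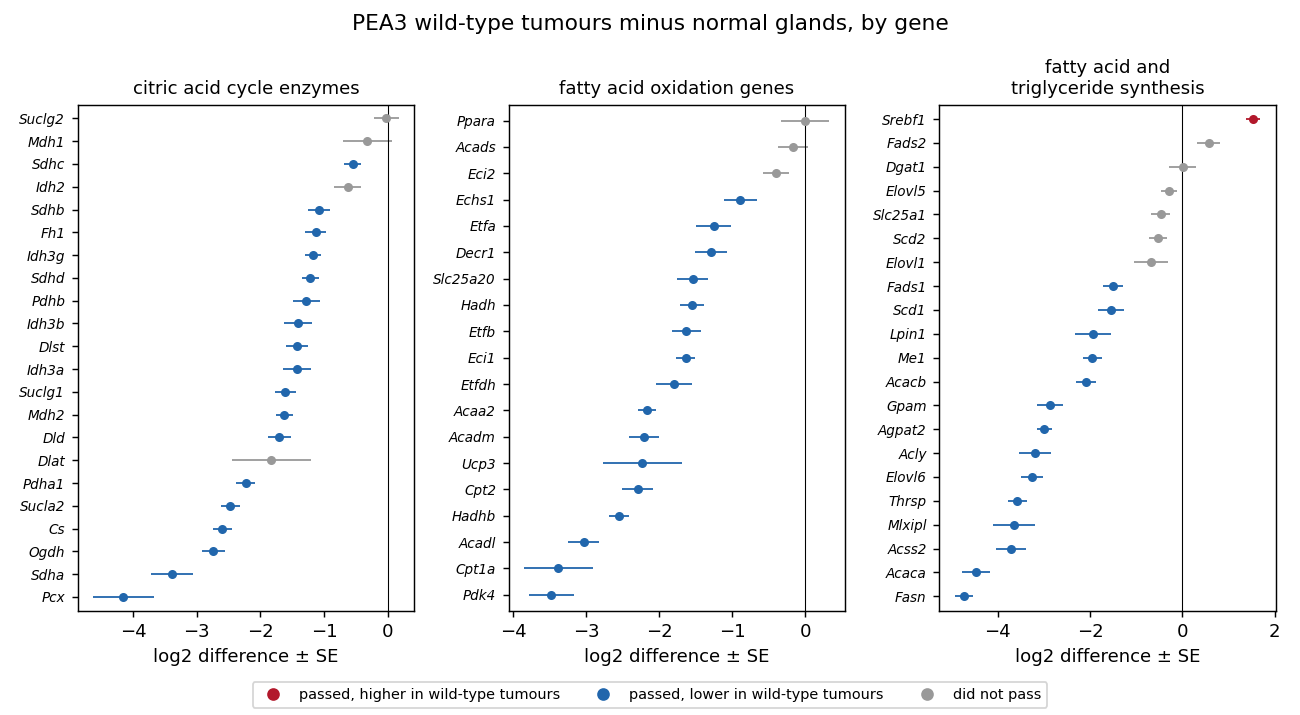
Log2 difference with its standard error, PEA3 wild-type tumours minus normal glands, for every tested gene of the citric acid cycle, of fatty acid oxidation and of fatty acid and triglyceride synthesis. Blue genes passed and were lower in tumours, grey genes did not pass, and Srebf1 at 1.53, in red, was the 1 gene of the 3 lists that passed upward.

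Amino acid and redox genes changed singly. Of 19 amino acid transporter genes 5 fell and 1 rose. Slc1a5, a glutamine transporter read on chip C, was at 4693 and 5799 in tumours, against 114084, 134988 and 129299 in glands (log2 -4.58, SE 0.17). Slc7a5 (0.61) and Slc3a2 (0.06), the 2 chains of the large neutral amino acid carrier, did not pass. Of 32 antioxidant and glutathione transferase genes 9 rose and 9 fell. Gpx3, the extracellular glutathione peroxidase, read 683, 1085 and 1797 in tumours, against 22565, 21345 and 18706 in glands (log2 -4.20, SE 0.27). Gstm2 fell by 3.23, and Prdx4, a peroxiredoxin of the secretory route, rose by 2.18. Other probe sets of Gstm2 (0.12 and 0.10) and of Prdx4 (-0.26) did not pass. Among 18 hypoxia-response genes 5 rose and 2 fell. Egln3, an oxygen-sensing prolyl hydroxylase, read 32170 and 37308 in tumours, against 5094, 4788 and 4480 in glands (log2 2.85, SE 0.17), while Epas1, HIF-2 alpha, fell by 2.96 and Vegfa (0.41), Car9 (1.21) and Hif1a (0.02) did not pass. The second probe set of Epas1 did not pass either (0.01). Of 20 clock genes 7 fell and 1 rose, with Nr1d1 at -1.72, Bhlhe41 at -1.54 and Hlf at 1.10, and Arntl (0.34), Clock (0.49) and Per2 (0.07) not passing. Sampling times are not given in the sources used here. Of 16 glucocorticoid-response genes 5 rose and 5 fell, with Lcn2 and Ddit4 (1.49) higher, Pdk4 lower and Tsc22d3 (1.40), Sgk1 (0.34) and Fkbp5 (-0.30) not passing. Without normal glands 1 and 2, 4 antioxidant genes rose and 3 fell, and 1 clock gene fell.

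Most white adipocyte and fast muscle genes fell. Of 23 white adipocyte genes 17 fell (73.9%) and 2 rose, with a median of -2.87. Retn, the fat hormone resistin, read 64.1, 117 and 104 in tumours, against 9051, 9537 and 9522 in glands (log2 -6.23, SE 0.32). Cebpb, a factor that also acts in mammary epithelium, rose by 1.99 and Apoc1 by 1.42, while Cd36 (-0.71) and Agt (0.29) did not pass. Summed over 22 members on chips A and B the signal was 22874 to 25657 in tumours and 132652 to 153721 in glands. Of 18 fast skeletal muscle genes 17 fell (94.4%), with a median of -6.20. Myh4, a fast myosin heavy chain, read 112, 40.9 and 5.88 in tumours, against 33642, 34046 and 38845 in glands (log2 -8.91, SE 0.51). The sum over 14 members was 1473 to 1852 in tumours and 237010 to 252095 in glands. Of 15 slow and cardiac muscle genes 8 fell and 0 rose, with a median of -1.64, led by Myl2 (-4.79) and Mybpc1 (-4.48). Of 9 myogenic regulators and satellite cell genes 4 fell, with Mef2c at -2.75 and the intermediate filament gene Des at -1.72, and Myod1 (-0.69) and Myog (-0.18) did not pass. Other probe sets of Mef2c (1.18, -1.26, -1.31 and -0.55) did not pass. Of 8 brown adipocyte genes 4 fell, led by the lipid droplet gene Cidea (-4.86), and Ucp1 (-0.58), the uncoupling protein, did not pass. Normal glands 1, 2 and 3 each carried strong signal of muscle, a tissue that the labels do not name. This signal and that of fat were present although the labels give a Sca-1 sort, and how they came about was not tested. What the falls of fat, muscle and stromal genes measure therefore depends on material that the labels leave unclear. Casq1 was read by 2 probe sets, of which 102426_at fell by 5.47 and the brighter one did not pass (0.65). With normal glands 1 and 2 left out, 13 white adipocyte and 11 fast muscle genes fell.

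Stromal and vascular genes were lower as well. Of 27 proteoglycan and fibroblast matrix genes 17 fell (63.0%) and 1 rose, with a median of -1.42. Dcn, the collagen-binding proteoglycan decorin, read 950, 1484 and 1222 in tumours, against 22357, 20766 and 21457 in glands (log2 -4.13, SE 0.22). Efemp1 (-4.54) and Dpt (-4.48) fell, and Vcan (-0.25), Tnc (-0.43) and Thbs2 (-0.07) did not pass. Lox, which cross-links collagen, rose by 1.10 with an adjusted p just under the threshold (limma adjusted p = 0.0495), and it missed the threshold under most other settings. Of 22 collagen genes 10 fell and 0 rose, led by Col15a1 (-3.41), Col6a1 (-2.70), Col1a1 (-2.70) and Col3a1 (-2.45). Of 18 basement membrane genes 7 fell and 0 rose, with Lamb1 at -2.42 and Dag1 at -1.77, and Lamc1 fell at 1 probe set and rose at another (-1.55 and 1.25). Integrin subunits were divided, 5 higher and 4 lower of 18, with Itgb8 (2.46) and Itgb3 (2.09) up and Itga7 of muscle (-1.55) down, and Itgb1 (-0.05), Itga6 (-0.37) and Itgb4 (0.00) not passing. Of 18 metalloproteinase and inhibitor genes 6 fell and 2 rose, with a median of -0.69. Timp3, an inhibitor bound to matrix, fell by 3.87 and the membrane metalloproteinase gene Mmp16 rose by 2.59. When normal glands 1 and 2 were omitted, 0 integrin genes passed by the limma adjusted p and 6 had an unadjusted p under 0.05, and 2 basement membrane genes fell.

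Of 23 endothelial genes 17 fell (73.9%) and 0 rose, with a median of -1.77. Cdh5, VE-cadherin, read 24.7, 75.1 and 30.7 in tumours, against 1064, 1245 and 1461 in glands (log2 -4.14, SE 0.44). Vwf fell by 3.06, and Pecam1 (-1.06), Kdr (-1.46) and Plvap (0.11) did not pass. The sum over 20 members was 6230 to 8112 in tumours and 18982 to 20941 in glands. Without normal glands 1 and 2, 5 endothelial genes fell. Of 16 Schwann cell and nerve genes 3 fell and 1 rose. Pmp22 fell by 2.64 and Mbp, myelin basic protein, by 1.01, while Sox10, which marks both Schwann cells and mammary progenitors, read 4975, 4235 and 4624 in tumours, against 2488, 2655 and 2561 in glands (log2 0.83). Other probe sets of Sox10 rose by 3.19 and 1.98.

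Most immune genes tested were lower or did not pass, and single members of several lists rose. Of 18 T and NK cell genes 6 fell and 0 rose, with a median of -1.04. Ccl5, a chemokine of T cells, read 43.6, 58.8 and 138 in tumours, against 3742, 2303 and 2899 in glands (log2 -4.81, SE 0.41), and Cd3e fell by 2.28. Of 17 B cell genes 8 fell and 1 rose, with Cd79b at -2.97 and Ighm at -2.48. The gene that rose was Spib (1.27), whose second probe set read -1.24 without passing, and its call was lost without any 1 of the tumours and without gland 1 or gland 3. The summed signal was 1583 to 2367 in tumours and 7511 to 9858 in glands for T and NK genes, and 3262 to 3618 and 9169 to 9715 for B cell genes. Of 28 macrophage and granulocyte genes 7 fell and 3 rose. C1qa, a chain of the first complement component made by macrophages, read 3732, 5998 and 5910 in tumours, against 1533, 1221 and 982 in glands (log2 2.03, SE 0.21), beside the rise of Arg1. The other C1q chain genes did not follow to that extent. C1qb rose by 0.54, its second probe set did not pass (-0.46), and C1qc (-0.36) did not pass. Mrc1, the mannose receptor, fell by 3.01, Laptm5 by 2.56 and Csf1r by 1.92, while Adgre1 (-0.55), Cd68 (-0.42) and Lyz2 (-0.50) did not pass. Of 7 mast cell genes 3 fell and 1 rose. The protease genes Cma1 (-3.41) and Tpsb2 (-2.20) fell, although a second probe set of Tpsb2 (-0.39) and the protease gene Mcpt1 (0.63) did not pass. Kit, a receptor also of luminal progenitors, rose by 1.24. Of 4 erythroid genes 1 rose, the transcription factor gene Klf1 (1.76), and the globin gene Hba-a1 (0.36) did not pass. With normal glands 1 and 2 left out, falls numbered 2 for T and NK genes, 3 for B cell genes and 2 for macrophage genes.

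Of 19 chemokine genes 10 fell and 0 rose, with a median of -1.32. Cxcl13, the chemokine of B cell follicles, read 22.6, 24.1 and 16.5 in tumours, against 408, 250 and 381 in glands (log2 -2.81, SE 0.45), and Cxcl9 (-2.51) and Cxcl14 (-2.24) fell. Of 18 complement genes 5 fell and 2 rose, and the falls of C1s1 (-4.53), C2 (-4.50) and the C1 inhibitor gene Serping1 (-4.18) stood against the rise of C1qa. The other rise was that of C1qb (0.54), and C1qc (-0.36) did not pass. Of 12 MHC class II genes 6 fell and 1 rose. Cd74, the invariant chain, read 1188, 1400 and 1418 in tumours, against 14357, 14893 and 16526 in glands (log2 -3.48, SE 0.19), while the peptide exchange gene H2-DMb1 rose by 1.52. Of 14 class I genes 1 rose, the immunoproteasome gene Psmb9 (0.80), and 3 fell, while B2m (-0.21), H2-K1 (0.29) and H2-D1 (0.08) did not pass. The call of Psmb9 was lost without tumour 2, tumour 3 or gland 2. Of 26 interferon-induced genes 11 fell and 0 rose, with a median of -0.93, among them Gbp2 (-2.55), Gbp3 (-1.96), Igtp (-1.71) and Ifit3 (-1.70). When normal glands 1 and 2 were omitted, 4 chemokine genes and 5 interferon-induced genes fell.

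The signal of Etv4 itself was not lower by the test in tumours labelled PEA3-null than in wild-type tumours. The probe set 92979_at read 512 and 276 in tumours labelled PEA3-null, against 420, 360 and 361 in wild-type tumours (log2 -0.01, limma adjusted p = 0.998). The probe set 161842_r_at read 470 and 734 in tumours labelled PEA3-null, against 930, 367 and 954 in wild-type tumours (log2 -0.22, limma adjusted p = 0.875). Neither passed, the groups overlapped at both, and since the positions of the probes relative to the deleted part are not known here, these values do not check the label. Tumours labelled PEA3-null were set against wild-type tumours for the 26 genes named by size that were read on chips A and B. By the limma adjusted p 0 of these genes differed, against 37 of all 19275 probe sets there (0.192%). At an unadjusted p under 0.05 the count was 11 of the 26, and the share of all probe sets at that p is not given here. Of all 301 genes named on these chips, 3 differed by the limma adjusted p, which were Car3, Gbp3 and Ifit3. Aqp5, for example, read 41586 and 27129 in tumours labelled PEA3-null, against 43975, 50799 and 42356 in wild-type tumours (log2 -0.44, limma adjusted p = 0.592). With 2 against 3 arrays, a p that misses the threshold does not show that the 2 kinds of tumour are alike.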

How the data were processed

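The values deposited by the authors are probe set intensities on a linear scale, 1 table per array, made with MAS5 per the submitters' processing notes, and in the deposited files each array had already been scaled to a common trimmed mean. Before testing, all arrays were brought to a common trimmed mean of 500 (2% cut at each end, control probe sets left out), and log2 was taken after adding 32. A probe set entered the test if 2 or more arrays read it at 150 or higher. Each chip type was fitted separately by lmFit and eBayes with a variance trend, from limma 3.58.1 under R 4.3.3. The fit also held the arrays labelled PEA3-null, which share the estimate of spread, and chip C lacks the third wild-type tumour. Tests are two-sided, with Benjamini-Hochberg adjustment over all probe sets of the 3 chip types and a threshold of 0.05. The number of arrays limits the precision.

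Gene symbols came from the platform annotation, updated through RefSeq, and a probe set with several symbols was left unnamed. In list counts a gene is represented by its tested probe set of highest average log2 signal. Further probe sets are given for some named genes only, and many of those not given did not pass. Signals of different probe sets are not comparable as levels, and summed signals are compared between samples only. Named genes are the 15 largest rises and falls past the threshold with no overlap and both means of at least 150, Etv4, Etv5 and Erbb2, and up to 4 members of each of 61 lists past the threshold, plus up to 4 that moved against their list. Members that did not pass are examples. Elf5, Pcna, Cdk4, Copa, Psma4, Cdh1, Epcam, Krt6a, Tfap2c, Wap, the casein genes, Col11a1, Twist1, Ndn, Hk2, Pfkm, Aldoa and Csf1r fall outside that rule and were chosen after their values were seen. The arrays and the lists were chosen with earlier results of these data known, so that counts over lists are descriptions.

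Same-numbered tumour and gland samples did not deviate together (correlations of -0.06 to 0.02), so the numbers were not taken as pairs. Alternatives covered scaling, the added constant, the filter, the fit, a replicate block, scan day as a random block, and leaving out samples. The fit was tested on simulated data drawn for this comparison, with 185 probe sets changed among 26984. It recovered 26.9% of those changed by log2 2 and 1.09% of those changed by log2 1, with 0 false calls. In the data a far larger share was called, 5876 of 28242. Recovery under the Benjamini-Hochberg adjustment depends on the share changed, so these rates do not carry over to the data. Promoter windows came from RefSeq.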

Additional observations from a re-analysis of the deposited data

How the results depend on the processing

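The count of 5876 probe sets past the threshold (limma) lay between 5100 and 6757 under other scalings, constants, filters and variance models and with scan day as a random block. The scan day block cannot separate day from tissue, since no tumour array shared a day with a gland array of its chip. Requiring a log2 change beyond 1 left 1339 (586 higher, 753 lower). With normal glands 1 and 2 left out, since their chip A wash ended in an abort, 2093 passed (1326 higher, 767 lower), in a fit that rests on 1 gland assumed to vary like the other groups. Leaving out 1 sample at a time gave 4144 to 5250. A replicate block gave 5190, although the numbers do not pair the samples. Of 322 named values past the threshold, 45 lost it in at least 1 fit without a replicate, 17 with the replicate block, and 100 of the 305 tested without normal glands 1 and 2, and 0 changed direction under any alternative. Of named values that had not passed, the brighter Etv4 probe set reversed to 0.25 without wild-type tumour 2 (limma adjusted p = 0.573), against -0.18 with all samples, and ranged from -0.40 to 0.25 when 1 sample was left out. Of list counts, 340 moved by more than 1.5 times and 2222 did not, over all settings. The cause of these changes was not tested, and dim probe sets, whose tumour signals lie near the constant of 32, carry the least certain folds.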
